A study of Mus musculus with 4 samples.

Results

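*Srgn*, *Glipr1* and genes linked to parietal or visceral endoderm were followed in embryoid bodies (EBs) that lacked the promoter of *Gm11549*, the gene of the micropeptide NEMEP. Of the 8 genes, among 24347 gene rows, *Srgn* and *Glipr1* were chosen by their increase, which was among the largest in the same comparison, and 6 were selected on their role (*Plat*, *Thbd*, *Fst*, *Gpc3*, *Cited1* and *Pth1r*). EBs are floating clumps of differentiating mouse embryonic stem cells (mESCs), and RNA was sequenced at day 3, with 2 WT and 2 promoter KO samples. The mESCs were of the 129/Ola strain. In the promoter KO cells the promoter had been removed with CRISPR/Cas9 and clones had been grown from single sorted cells, and the sources do not say whether the 2 samples are 1 clone or separate clones. EBs of both genotypes formed in serum medium without LIF, the factor that keeps mESCs undifferentiated, and the labels name bacterial plates where the methods name an ultra-low attachment dish. Levels are given in FPKM, fragments scaled to transcript length and library size. *Gm11549* itself was listed at 0.750 and 0.522 FPKM in WT, against 0 and 0.0659 in promoter KO, in the direction of the labels. The samples are labelled as mesendoderm cells, the precursors of mesoderm and endoderm, and 2 of the markers of this fate, *Eomes* and *Mixl1*, were present in each. *Eomes* had 166 and 168 FPKM in WT and 56.3 and 97.1 in promoter KO, and *Mixl1* had 63.0 and 76.3 in WT and 5.56 and 15.9 in promoter KO.

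Parietal endoderm and visceral endoderm are extraembryonic layers that both descend from the primitive endoderm of the blastocyst. Parietal endoderm lays down a thick basement membrane of laminin and type IV collagen and releases tissue plasminogen activator, while visceral endoderm absorbs and transports nutrients and secretes serum proteins. The group name calls the comparison genes secreted products, but this holds for *Plat* and *Fst* and not for all of them, since *Thbd* and *Pth1r* encode receptors in the plasma membrane, *Gpc3* a proteoglycan anchored to the cell surface and *Cited1* a nuclear coregulator.

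*Srgn* encodes serglycin, the proteoglycan of secretory granules in blood cells, which is also made by yolk sac tumor cells. It lies on chromosome 10 at 62493833 to 62527451 on the minus strand (GRCm38), and its transcript Srgn-201 has 3 exons. *Srgn* had 2.33 and 0.254 FPKM in WT samples 1 and 2, and 20.8 and 24.9 FPKM in promoter KO samples 1 and 2. Both promoter KO samples were high and close together, while the WT samples were low and far apart, and the groups did not overlap. The means were 1.29 ± 1.47 FPKM in WT and 22.9 ± 2.88 in promoter KO (SD, n = 2 each), a ratio of 17.7, and on the scale of log2(FPKM + 1) the difference was 3.54. The ratio was 90.1 without WT 1 and 9.82 without WT 2, and the difference 4.24 and 2.84. This was the rank 2 increase of the 11941 genes that reached 1 FPKM in 2 or more samples, and since *Srgn* was chosen on it, it was not tested. WT 1 had 9.17 times the value of WT 2, and 99.6% of the genes that passed the filter differed by less between the WT samples on the log2 scale. In bulk RNA, a different number of cells of a type cannot be told apart from a different amount of RNA per cell.

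*Glipr1* encodes a protein of the CAP family, whose members share a cysteine-rich domain with plant pathogenesis-related proteins. It lies on chromosome 10 at 111985448 to 112002631 on the minus strand, with 6 exons in Glipr1-201. *Glipr1* had 0.433 and 0.0539 FPKM in WT samples 1 and 2, and 7.14 and 10.6 FPKM in promoter KO samples 1 and 2. It showed the same order of samples as *Srgn*, with WT 2 the lowest, promoter KO 2 the highest and no overlap between the groups. The means were 0.243 ± 0.268 FPKM in WT and 8.86 ± 2.42 in promoter KO (SD, n = 2 each), a difference of 2.98 on the log2(FPKM + 1) scale, which was rank 3 and was not tested, for the same reason. *Glipr1* reached 1 FPKM in 0 WT samples, so it passed the filter through the promoter KO samples. Per length, *Srgn* was above *Glipr1* in each sample, at 5.37 and 4.71 times its value in WT and 2.92 and 2.35 times in promoter KO. In WT 2 the values rest on about 4 and 1 fragments, so neither the order nor the ratio is firm there.

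**Figure D1:**
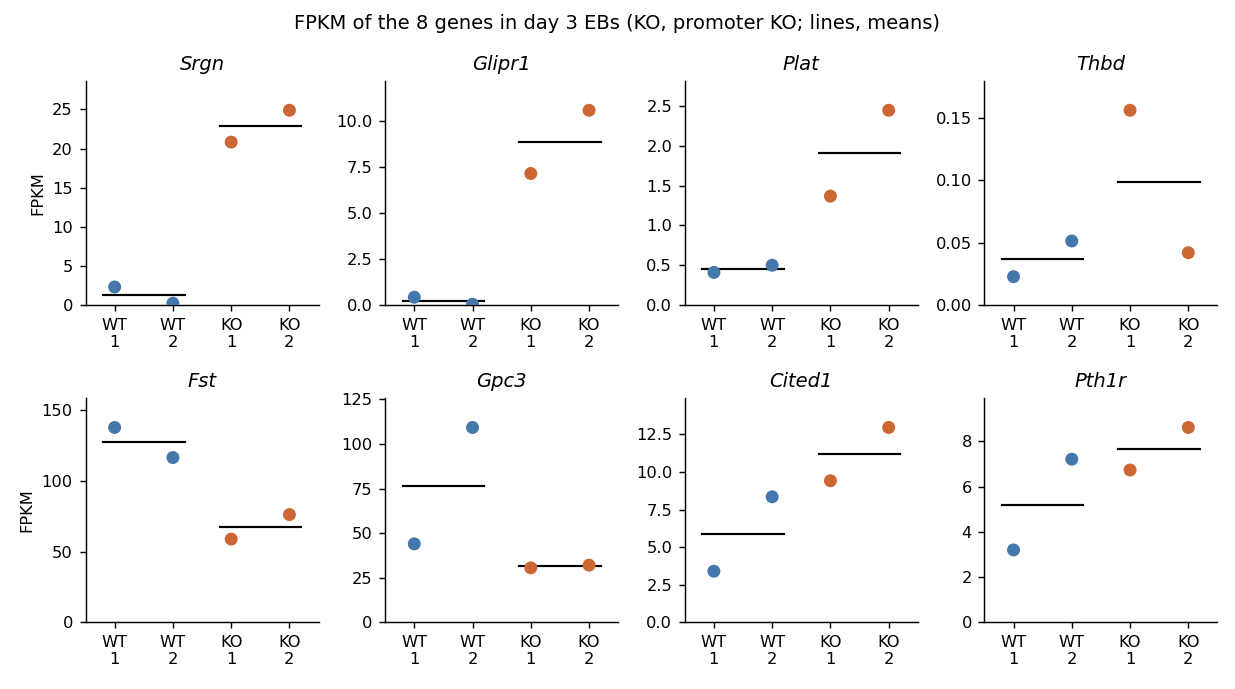
FPKM of the 8 genes (vertical axes, each from 0) in the 2 WT (blue) and 2 promoter KO samples (orange), with a line at each group's mean. *Srgn* and *Glipr1* were high in both promoter KO samples, *Fst* and *Gpc3* were higher in both WT samples, and the groups overlapped for *Thbd* and *Pth1r*.

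The low values rest on few fragments. The depth estimated from the lowest FPKM values was 25300000 and 22700000 fragments in WT, and 22100000 and 20400000 in promoter KO. At this depth the *Glipr1* values correspond to about 9 and 1 fragments in WT 1 and WT 2 (95% Poisson intervals 4.12 to 17.1 and 0.0253 to 5.57) and to about 131 and 179 in promoter KO. Those of *Srgn* correspond to about 41 and 4 fragments in WT (29.4 to 55.6 and 1.09 to 10.2) and to about 317 and 350 in promoter KO. These intervals cover counting error only and leave out the spread between samples. The gap between the WT samples was larger than counting error for *Srgn*, whose intervals did not overlap.

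**Figure D2:**
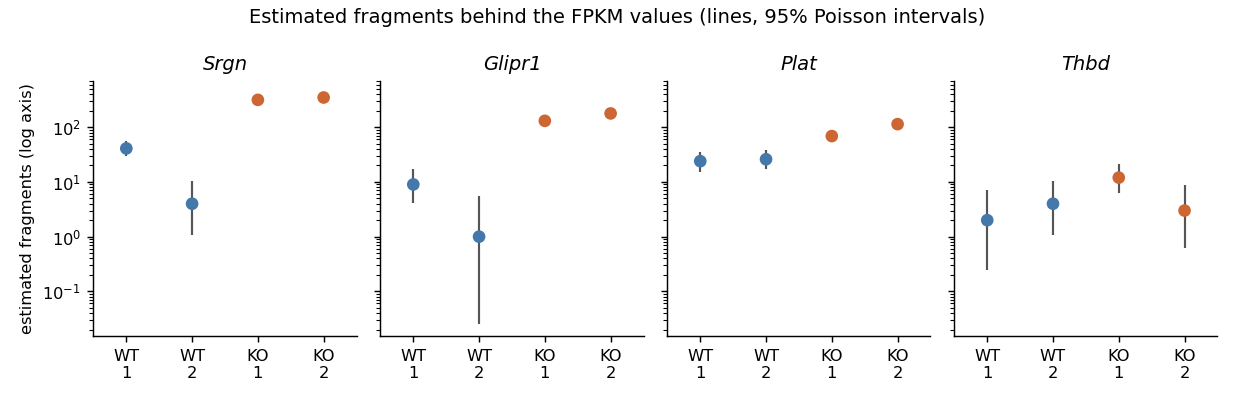
Estimated fragments (log axis) behind the values of *Srgn*, *Glipr1*, *Plat* and *Thbd* in each sample, with 95% Poisson intervals as lines. The WT values of *Glipr1* and all values of *Thbd* came from at most about 12 fragments.

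*Srgn* has annotated starts at more than 1 place, and the gene values do not tell them apart, so the 250 bases before both RefSeq starts (GRCm38.p6, minus strand, 5′ to 3′) are shown, with letters of searched motifs in capitals. The first is chr10:62527446-62527695 and the second, before the start of Srgn-201, is chr10:62507758-62508007.
Srgn upstream start: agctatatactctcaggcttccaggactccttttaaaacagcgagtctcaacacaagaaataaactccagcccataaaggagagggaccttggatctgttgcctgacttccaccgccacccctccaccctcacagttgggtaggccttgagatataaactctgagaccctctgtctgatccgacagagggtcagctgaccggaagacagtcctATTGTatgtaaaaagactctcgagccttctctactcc
Srgn-201 start: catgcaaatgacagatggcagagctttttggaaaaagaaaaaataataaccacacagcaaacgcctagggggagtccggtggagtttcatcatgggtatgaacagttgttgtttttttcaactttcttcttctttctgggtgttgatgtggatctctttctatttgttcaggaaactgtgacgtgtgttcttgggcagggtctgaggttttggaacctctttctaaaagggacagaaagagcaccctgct
The letters searched on both strands were GATAA (bound by GATA factors), ACAAT (SOX factors), TGACGTCA (CREB) and TGANTCA (AP-1). Of these, ACAAT matched 1 time, on the other strand, with its first printed base 37 bases before the upstream start, and 0 matches were found before the start of Srgn-201. Of 32851 promoters of the same table, 250 bases before to 50 after a start, 25.4% held GATAA, 31.0% ACAAT, 1.79% TGACGTCA and 7.81% TGANTCA. RefSeq promoters were matched for 4 of the 8 genes. A match is a description of letters.

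The 2 genes were compared with their neighbours on chromosome 10, where they lie far apart. Over all genes tested in the fit described next, limma called 1.68% higher and 1.89% lower. At p under 0.05 before adjustment these shares were 15.0% and 15.6%. Of the 10 genes around *Srgn*, 5 on each side, 7 passed the filter and 1 was called in this fit (3 higher and 0 lower at p under 0.05 before adjustment). The call was *Hkdc1*, which encodes a protein of the hexokinase family and starts 105.0 kb to the left of the start of *Srgn* on the chromosome map. *Hkdc1* had 0.245 and 0.0413 FPKM in WT and 1.44 and 2.12 in promoter KO, again with WT 2 the lowest. It passed the filter only through the promoter KO samples and so had to differ, and its call supports nothing, nor does its place among the 3. *Vps26a*, the gene nearest to *Srgn* on that side, had 31.3 and 25.5 FPKM in WT and 41.6 and 42.1 in promoter KO (limma, adjusted p = 0.05846), and *Kif1bp* on the other side had 18.7 and 17.8 against 21.4 and 20.1. Of the 10 genes around *Glipr1*, 3 passed the filter, limma called 0 (2 higher and 0 lower at p under 0.05 before adjustment, and 1 of the 2 had to differ to pass the filter) and 5 were listed at 0 in all samples. The CAP genes *Glipr1l1* and *Glipr1l2*, which lie beside *Glipr1*, were among those at 0. The exons of *Glipr1* overlap those of *Krr1* on the opposite strand by 352 bases, and the sources used here do not state whether counting used strand, so reads from this stretch cannot be told apart. *Krr1* had 21.7 and 19.4 FPKM in WT and 28.5 and 25.0 in promoter KO.

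Across all genes, limma on log2(FPKM + 1) called 201 genes higher (1.68% of 11941) and 226 lower (1.89%) in promoter KO at an adjusted p under 0.05. For 32.9% of these genes the promoter KO values were all above the WT values, and for 32.4% all below. Of the 6 genes chosen by role, 5 passed the filter, 0 were called higher and 1, *Fst*, was called lower. At p under 0.05 before adjustment these counts were 2 and 2, against 1786 higher (15.0%) and 1863 lower (15.6%) of all genes tested. *Plat*, 1 of the 2 higher, had to differ to pass the filter, so these counts support nothing for it. The promoter KO values were all above the WT values for 2 of the 5 genes and all below for 2, and for 1 gene the groups overlapped. The calls depended on single samples, and without WT 2 or without promoter KO 1 limma called 0 genes in either direction, with 899 higher and 976 lower, and 966 higher and 1043 lower, at p under 0.05 before adjustment. Each call named here was thus lost when WT 2 or promoter KO 1 was left out. Without WT 1, 61 genes were called higher and 114 lower. Of the list genes named below, the calls of *Sparc*, *B3gat3*, *Ext1*, *F2r*, *F2rl1*, *F3*, *Fstl3* and *Ramp2* were also lost without WT 1, and those of *Ttr*, *Dab2*, *Gata6*, *Lmo2*, *Ext1*, *F2r*, *F3*, *Fstl3* and *Tfap2c* without promoter KO 2. Without the intensity trend the calls of *Sparc*, *Ttr*, *Dab2*, *Gata6*, *Lmo2*, *B3gat3*, *Ext1*, *F2r*, *F2rl1*, *F3*, *Fstl3* and *Tfap2c* were lost, with median centring those of *Lmo2*, *Ext1*, *F2r* and *Fstl3*, and without the filter on low values all of them. A filter at a mean of 5 FPKM left out *Ttr*, *Cubn*, *F3* and *Fstl3*. The study describes the samples as biologically independent, while the labels do not say whether they came from separate cultures. The p-values measure the spread between these samples.

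**Figure D3:**
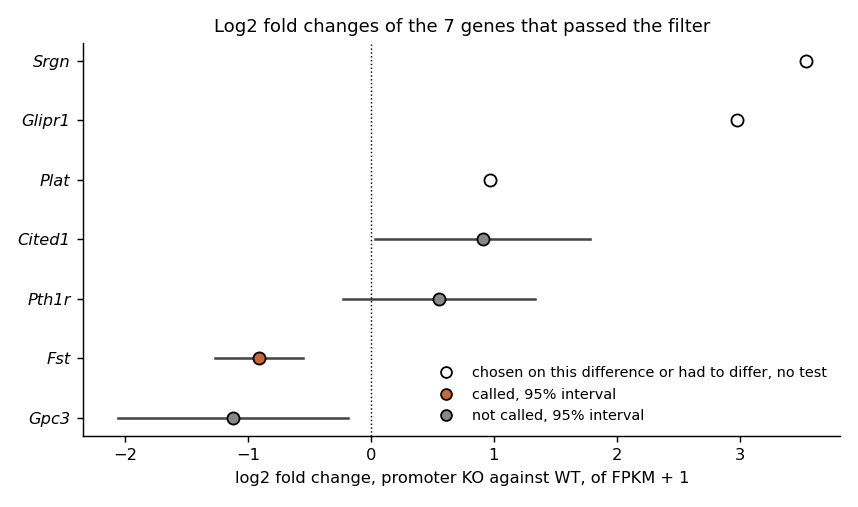
Log2 fold changes of FPKM + 1 (horizontal axis) of the 7 genes that passed the filter, with 95% intervals from limma for *Fst*, *Gpc3*, *Cited1* and *Pth1r*. *Fst* was the gene called, and open points have no interval, for *Srgn* and *Glipr1* because they were chosen on this difference and for *Plat* because it had to differ to pass the filter.

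*Plat* encodes tissue plasminogen activator, the secreted protease that turns plasminogen into plasmin. It had 0.412 and 0.501 FPKM in WT samples 1 and 2, and 1.37 and 2.45 FPKM in promoter KO samples 1 and 2. The WT samples were low and alike, the promoter KO samples were higher and further apart, and the groups did not overlap. *Plat* reached 1 FPKM in 0 WT samples and passed the filter through the promoter KO samples, so it had to differ and its test is not read. Its log2 fold change was 0.97, and on means without a pseudocount the ratio was 4.18. The values correspond to about 24 and 26 fragments in WT and 69 and 114 in promoter KO.

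Of 11 other genes of the plasminogen system, 6 passed the filter and limma called 0, with 3 higher and 2 lower at p under 0.05 before adjustment, and without WT 1 it called 2 lower. Their median log2 fold change was 0.09, against 0.00 for all genes tested. *S100a10*, which encodes a subunit of a plasminogen-binding complex at the cell surface, was the most abundant in each sample, with 277 and 487 FPKM in WT and 217 and 224 in promoter KO. It was highest in WT 2, whereas *Plat* was alike in WT 1 and WT 2.

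*Thbd* encodes thrombomodulin, the receptor through which thrombin activates protein C. It had 0.0228 and 0.0514 FPKM in WT samples 1 and 2, and 0.156 and 0.0420 FPKM in promoter KO samples 1 and 2, and was below the filter, so it was not tested. The groups overlapped, since promoter KO 2 lay below WT 2, and the highest value was in promoter KO 1. These values correspond to about 2, 4, 12 and 3 fragments, summed 6 in WT and 15 in promoter KO, a ratio of 2.82 per depth (1.04 to 8.88 by counting error only). Of the 15 fragments 12 came from promoter KO 1, and the ratio was 1.18 without that sample (0.190 to 5.51) and 4.46 without WT 2 (1.04 to 40.2).

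Of 12 other genes of the thrombin and protein C system, 6 passed the filter, 1 was called higher and 2 lower (2 and 2 at p under 0.05 before adjustment), with a median of 0.34. *F3*, which encodes the tissue factor that starts coagulation, had 1.82 and 1.99 FPKM in WT and 4.34 and 5.17 in promoter KO (limma, log2 fold change 0.98, SE 0.15, adjusted p = 0.03947). The protease-activated receptors *F2r* and *F2rl1* were called lower. *F2rl1*, the most abundant of the list in WT but not in promoter KO, had 30.1 and 33.3 FPKM in WT and 14.7 and 17.0 in promoter KO (limma, log2 fold change -0.96, SE 0.12, adjusted p = 0.0311). *F2r* had 18.6 and 21.0 against 11.7 and 12.4 (limma, log2 fold change -0.67, SE 0.11, adjusted p = 0.046). Per length, all 3 were far above *Thbd* in each sample.

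*Fst* encodes follistatin, a secreted protein that binds and blocks activins. It was the most abundant of the 8 genes, with 138 and 116 FPKM in WT samples 1 and 2, and 58.8 and 76.1 FPKM in promoter KO samples 1 and 2. Both promoter KO samples were below both WT samples, and the spread within each genotype was smaller than the gap between them. The means were 127 ± 15.0 FPKM in WT and 67.4 ± 12.2 in promoter KO (SD, n = 2 each), and *Fst* was called lower (limma, log2 fold change -0.91, SE 0.15, 95% interval -1.27 to -0.55, adjusted p = 0.04216). The call was lost without WT 1, without WT 2 or without promoter KO 1, where the log2 fold changes were -0.79, -1.03 and -0.73, and also without the intensity trend or without the filter on low values. *Srgn* and *Glipr1* were chosen on their increase, so the opposite direction of *Fst* supports nothing. The exons of *Fst* overlap 115 bases of an antisense transcript, *Gm47040*, which has no row.

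Of 5 other genes of follistatin and activin, 3 passed the filter, 0 were called higher and 1 lower (0 and 2 at p under 0.05 before adjustment, of which 1 had to differ to pass the filter), with a median of -0.59. With 3 genes tested, this median is the value of the gene that had to differ, so it supports nothing. The gene called was *Fstl3*, a relative of *Fst* whose product also binds activins, with 3.73 and 3.59 FPKM in WT and 1.59 and 1.80 in promoter KO (limma, log2 fold change -0.79, SE 0.14, adjusted p = 0.04822). This call was lost also with a pseudocount of 0.1 and with quantile normalization. *Fstl1*, the most abundant of the list, had 12.9 and 17.3 FPKM in WT and 10.4 and 14.0 in promoter KO, and its groups overlapped.

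*Gpc3* encodes glypican-3, a heparan sulfate proteoglycan held at the cell surface by a lipid anchor. It had 44.0 and 109 FPKM in WT samples 1 and 2, and 30.6 and 32.1 FPKM in promoter KO samples 1 and 2. The promoter KO samples were nearly equal and below both WT samples, and WT 2 stood far above the other 3 samples. WT 2 had 2.48 times the value of WT 1, and 99.4% of the genes that passed the filter differed by less between the WT samples on the log2 scale. *Gpc3* was not called (limma, log2 fold change -1.12, SE 0.38, 95% interval -2.06 to -0.19, adjusted p = 0.1206). The difference was -1.77 without WT 1, where it passed the threshold, and -0.48 without WT 2, where it did not, so its size rested on WT 2.

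Of 16 other proteoglycan core proteins, 13 passed the filter and limma called 0, with 3 higher and 5 lower at p under 0.05 before adjustment. Of the 5, 1 had to differ to pass the filter, and the median of -0.25 includes it. Without promoter KO 2, 1 was called higher and 1 lower. *Agrn*, the gene of agrin in basement membranes, was the most abundant by the mean of the 4 samples but not in WT 1 or promoter KO 1, with 33.6 and 47.4 FPKM in WT and 31.9 and 34.5 in promoter KO. Of 24 genes of glycosaminoglycan synthesis, which build the chains that both serglycin and glypican-3 carry, 20 passed the filter, 0 were called higher and 2 lower (1 and 4 at p under 0.05 before adjustment), with a median of -0.03. *B3gat3*, which completes the linker between core protein and chain, had 41.7 and 43.3 FPKM in WT and 26.5 and 29.2 in promoter KO (limma, log2 fold change -0.60, SE 0.10, adjusted p = 0.04216). *Ext1*, a subunit of the heparan sulfate polymerase, had 30.9 and 29.9 against 19.6 and 21.0 (limma, log2 fold change -0.56, SE 0.10, adjusted p = 0.046). *Srgn* was chosen on its increase, so its direction was not compared with that of this list.

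*Pth1r* encodes the receptor for parathyroid hormone and its related protein, which acts through a stimulatory G protein and cAMP and is known from parietal endoderm. It had 3.20 and 7.21 FPKM in WT samples 1 and 2, and 6.73 and 8.61 FPKM in promoter KO samples 1 and 2. The groups overlapped, since WT 2 lay between the promoter KO samples, and WT 1 was the sample set apart. *Pth1r* was not called (limma, log2 fold change 0.55, SE 0.32, 95% interval -0.23 to 1.33, adjusted p = 0.2849), and the difference was 0.07 without WT 1 and 1.04 without WT 2, where it was not called either. Its exons overlap those of *Myl3* on the opposite strand by 95 bases, and *Myl3* had 0.783 and 1.75 FPKM in WT and 0.967 and 1.51 in promoter KO.

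Of 13 other genes of the PTH receptor pathway, 10 passed the filter, 0 were called higher and 1 lower (0 and 3 at p under 0.05 before adjustment, and 2 called lower without promoter KO 2), with a median of -0.10. *Pth* was listed at 0 in all samples. *Gnas*, the gene of the stimulatory G protein subunit, was the most abundant, with 464 and 549 FPKM in WT and 224 and 351 in promoter KO. *Ramp2*, which encodes a partner of several receptors of this class, was called lower, with 15.9 and 15.4 FPKM in WT and 8.05 and 8.01 in promoter KO (limma, log2 fold change -0.88, SE 0.11, adjusted p = 0.03161).

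*Cited1* encodes a coregulator that binds the acetyltransferases p300 and CBP in the nucleus. It had 3.40 and 8.35 FPKM in WT samples 1 and 2, and 9.42 and 13.0 FPKM in promoter KO samples 1 and 2. Both promoter KO samples were above both WT samples, but WT 2 lay closer to promoter KO 1 than to WT 1. *Cited1* was not called (limma, log2 fold change 0.91, SE 0.36, 95% interval 0.04 to 1.78, adjusted p = 0.1529), and the difference was 0.37 without WT 1 and 1.45 without WT 2. Of 7 family members and partners, 6 passed the filter, 0 were called higher and 1 lower (1 and 2 at p under 0.05 before adjustment), with a median of -0.10. The gene called was *Tfap2c*, a transcription factor of the AP-2 family, with 9.60 and 16.2 FPKM in WT and 3.87 and 3.83 in promoter KO (limma, log2 fold change -1.48, SE 0.24, adjusted p = 0.04216). *Cited2*, the most abundant of the list, had 95.5 and 114 FPKM in WT and 74.7 and 69.1 in promoter KO.

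By mean FPKM over the WT samples the order was *Fst* (127), *Gpc3* (76.7), *Cited1* (5.87), *Pth1r* (5.20), *Srgn* (1.29), *Plat* (0.457), *Glipr1* (0.243) and *Thbd* (0.0371). In promoter KO it was *Fst* (67.4), *Gpc3* (31.4), *Srgn* (22.9), *Cited1* (11.2), *Glipr1* (8.86), *Pth1r* (7.67), *Plat* (1.91) and *Thbd* (0.0990). The ranges of the WT samples overlapped between *Cited1* and *Pth1r*, between *Srgn* and *Plat*, between *Srgn* and *Glipr1*, and between *Plat* and *Glipr1*. In promoter KO they overlapped between *Cited1* and *Glipr1* and between *Glipr1* and *Pth1r*. *Gpc3*, *Cited1* and *Pth1r* were lower in WT 1 than in WT 2, while *Srgn* and *Glipr1* were higher in WT 1.

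The genes most like *Srgn* and *Glipr1* were found by the distance between the 4 values of log2(FPKM + 1) after each gene's mean was subtracted, among the genes that passed the filter. For *Srgn* they were *Pga5* (0.63), *Ctsh* (0.89), *Glipr1* (0.90), *Aqp8* (0.995) and *Amn* (1.13), and for *Glipr1* they were *Aqp8* (0.19), *Ctsh* (0.25), *Amn* (0.54), *Lama1* (0.60) and *Pga5* (0.73). The proteins are a pepsinogen (*Pga5*), a lysosomal cathepsin (*Ctsh*), a water channel (*Aqp8*), a part of the cubilin receptor (*Amn*) and a laminin chain (*Lama1*). *Aqp8* had 0.479 and 0.0358 FPKM in WT and 6.20 and 9.27 in promoter KO, and *Ctsh* had 4.39 and 2.29 in WT and 23.9 and 34.4 in promoter KO. *Pga5*, with 4.45 and 1.02 FPKM in WT and 22.0 and 26.1 in promoter KO, also had WT 2 as its lowest sample. This is a description of likeness over 4 samples.

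**Figure D4:**
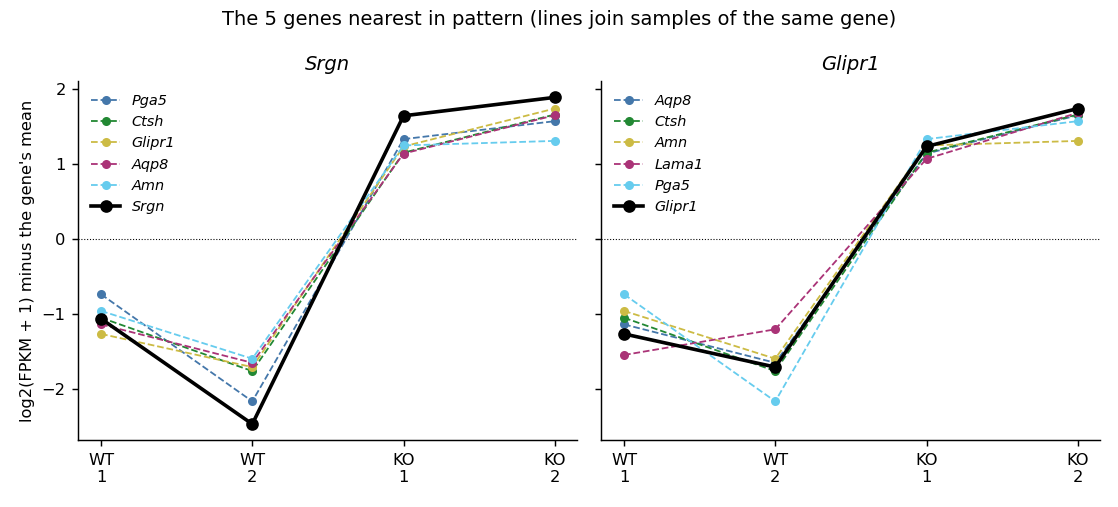
Log2(FPKM + 1) minus the gene's own mean (vertical axis) in the 4 samples for *Srgn* (left) and *Glipr1* (right), black, and the 5 genes nearest to each, dashed. All of them were lower in both WT samples, and among the genes drawn *Lama1* had its lowest value in WT 1 and the others in WT 2.

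Because *Srgn* and *Glipr1* were set beside endoderm genes, markers of these layers were read in the same fit. The lists of these layers were chosen with earlier results of these data known, so their calls are a description and support nothing. Of 13 parietal endoderm markers, 12 passed the filter, 6 were called higher and 0 lower, with 7 higher and 2 lower at p under 0.05 before adjustment and a median of 0.55. Of the 6, 1 passed only through the promoter KO samples and so had to differ, and the median includes it. *Lama1* had 1.51 and 2.18 FPKM in WT and 14.5 and 22.7 in promoter KO (limma, log2 fold change 2.76, SE 0.24, adjusted p = 0.02078). The type IV collagen genes *Col4a1* and *Col4a2* were called higher too, *Col4a2* with 4.83 and 6.35 against 23.5 and 31.8 FPKM (limma, log2 fold change 2.11, SE 0.19, adjusted p = 0.02078) and *Col4a1* with 9.37 and 11.4 against 33.4 and 46.3 (limma, log2 fold change 1.83, SE 0.18, adjusted p = 0.02331). *Sparc*, the most abundant in promoter KO, had 46.0 and 59.3 FPKM in WT and 111 and 134 in promoter KO (limma, log2 fold change 1.21, SE 0.15, adjusted p = 0.0318). In WT *Krt8* was the most abundant. The keratins of the list were not called, and *Krt8*, named after its values were seen, had 68.5 and 132 FPKM in WT and 46.5 and 65.7 in promoter KO. The summed level of the list was 291 and 446 FPKM in WT and 403 and 508 in promoter KO, so the sums overlapped. Without WT 1, 3 markers of this list were called higher and 1 lower, and without WT 2 or without promoter KO 1 limma called 0.

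Of 14 visceral endoderm markers, 12 passed the filter, 5 were called higher and 0 lower, with 9 higher and 1 lower at p under 0.05 before adjustment and a median of 0.98. Of the 5, 2, and of the 9, 3, passed only through the promoter KO samples and so had to differ, among them *Cubn*. The median includes these genes, so the filter set part of it. *Amn* and *Cubn*, which encode the receptor complex for absorbed proteins, were called higher, *Amn* with 2.33 and 1.14 FPKM in WT and 14.4 and 15.1 in promoter KO (limma, log2 fold change 2.56, SE 0.22, adjusted p = 0.02078) and *Cubn* with 0.362 and 0.0686 against 3.09 and 4.29. *Ttr*, which encodes transthyretin, had 2.18 and 0.996 FPKM against 8.14 and 6.32 (limma, log2 fold change 1.70, SE 0.25, adjusted p = 0.03893). *Apoe* was the most abundant, with 635 and 617 FPKM in WT and 808 and 924 in promoter KO. The summed level was 652 and 631 FPKM in WT and 859 and 982 in promoter KO, and without *Apoe* 17.3 and 14.0 against 50.7 and 57.1. Without promoter KO 2, 3 of these markers were called, and with a filter at a mean of 5 FPKM 2.

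Of 7 primitive endoderm regulators, all passed the filter, 1 was called higher and 1 lower (2 and 4 at p under 0.05 before adjustment), with a median of -0.79. *Dab2*, an endocytic adaptor, had 4.97 and 2.48 FPKM in WT and 13.0 and 18.4 in promoter KO (limma, log2 fold change 1.86, SE 0.29, adjusted p = 0.04084). *Gata6*, a transcription factor of the primitive endoderm, had 12.8 and 21.7 against 4.13 and 5.18 (limma, log2 fold change -1.65, SE 0.25, adjusted p = 0.03893). *Foxa2*, the most abundant, had 76.5 and 39.0 FPKM in WT and 19.7 and 37.5 in promoter KO. The summed level was 115 and 108 FPKM in WT and 56.1 and 89.4 in promoter KO. The paper lists *Foxa2* and *Sox17* among the mesendoderm genes impaired in EBs without NEMEP, and the median is the value of *Sox17*. The sum and the median are therefore not specific to primitive endoderm. The part of endoderm cells in the *Srgn* and *Glipr1* values was not tested.

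Since *Srgn* is also a gene of blood cells, markers of other cell types were read beside it. Of 10 leukocyte and granule markers, 2 passed the filter and limma called 0, with 0 in either direction at p under 0.05 before adjustment and a median of 0.29. *Tyrobp*, *Fcer1g* and *Cpa3* were listed at 0 in all samples, and *Ptprc*, the pan-leukocyte marker, had at most 0.0366 FPKM. The summed level was 1.83 and 2.55 FPKM in WT and 4.65 and 2.72 in promoter KO, with *Laptm5* the highest in promoter KO but not in WT, at 0.533 and 1.14 in WT and 3.42 and 1.31 in promoter KO, and without *Laptm5* 1.30 and 1.41 against 1.23 and 1.41. This rest was mostly *Spi1*, and the markers below the filter summed to 0.0637 and 0.0302 FPKM in WT and 0.442 and 0.288 in promoter KO, with *Ptprc*, *Csf1r* and *Itgam* each higher in both promoter KO samples than in both WT samples (*Spi1*, *Csf1r* and *Itgam* were named after their values were seen). Of 11 primitive blood and endothelial markers, 5 passed the filter, 0 were called higher and 2 lower. At p under 0.05 before adjustment the counts were 2 and 3, of which 1 each had to differ to pass the filter. The median of -1.16 includes the genes that had to differ. Without WT 1, 3 were called lower. The 2 higher before adjustment were *Pecam1* and *Tek*, both named after their values were seen. *Pecam1* had 1.83 and 2.97 FPKM in WT and 5.95 and 3.78 in promoter KO. *Tek* had 0.387 and 0.431 against 1.77 and 1.05 and had to differ to pass the filter. The genes called were *Etv2*, the most abundant, with 22.5 and 29.8 FPKM against 7.64 and 5.50 (limma, log2 fold change -1.84, SE 0.19, adjusted p = 0.02439), and *Lmo2*, with 5.96 and 9.23 against 2.93 and 2.63 (limma, log2 fold change -1.16, SE 0.21, adjusted p = 0.0476), whose call was lost also with quantile normalization or a filter at a mean of 5 FPKM. The embryonic globin genes of the list had at most 0.421 FPKM (*Hba-x* in promoter KO 2). The summed level was 33.4 and 55.5 FPKM in WT and 20.2 and 15.2 in promoter KO.

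Of 10 trophoblast markers, 4 passed the filter and limma called 0, with 1 higher and 1 lower at p under 0.05 before adjustment. The median of these markers was -1.08 and includes a gene that had to differ to pass the filter. Without WT 1, 1 was called lower. *Tpbpa*, *Prl3d1* and *Prl2c2* were listed at 0 in all samples, and *Cdx2*, the most abundant in WT but not in promoter KO, had 5.77 and 25.4 FPKM in WT and 2.49 and 5.51 in promoter KO. The summed level was 15.1 and 45.1 FPKM in WT and 12.3 and 15.0 in promoter KO, with WT 2 the highest, as for *Gpc3*. Of 7 fibroblast markers, 2 passed the filter and limma called 0, with 0 higher and 1 lower at p under 0.05 before adjustment. The gene that was lower had to differ to pass the filter, and the median of -0.14 includes it. *Postn* was listed at 0, *Thy1* was the most abundant with 11.3 and 10.2 FPKM in WT and 16.1 and 9.82 in promoter KO, and the sums were 12.9 and 12.4 against 17.5 and 11.2. Of the 13 genes of the CAP family with a row besides *Glipr1*, 1 passed the filter, *Glipr2*, with 21.9 and 32.2 FPKM in WT and 14.9 and 19.3 in promoter KO, and 5 were listed at 0 in all samples. *Glipr2* was not called (limma, log2 fold change -0.61, SE 0.21, adjusted p = 0.1187), so limma called 0 CAP genes here, with 0 higher and 1 lower at p under 0.05 before adjustment.

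**Figure D5:**
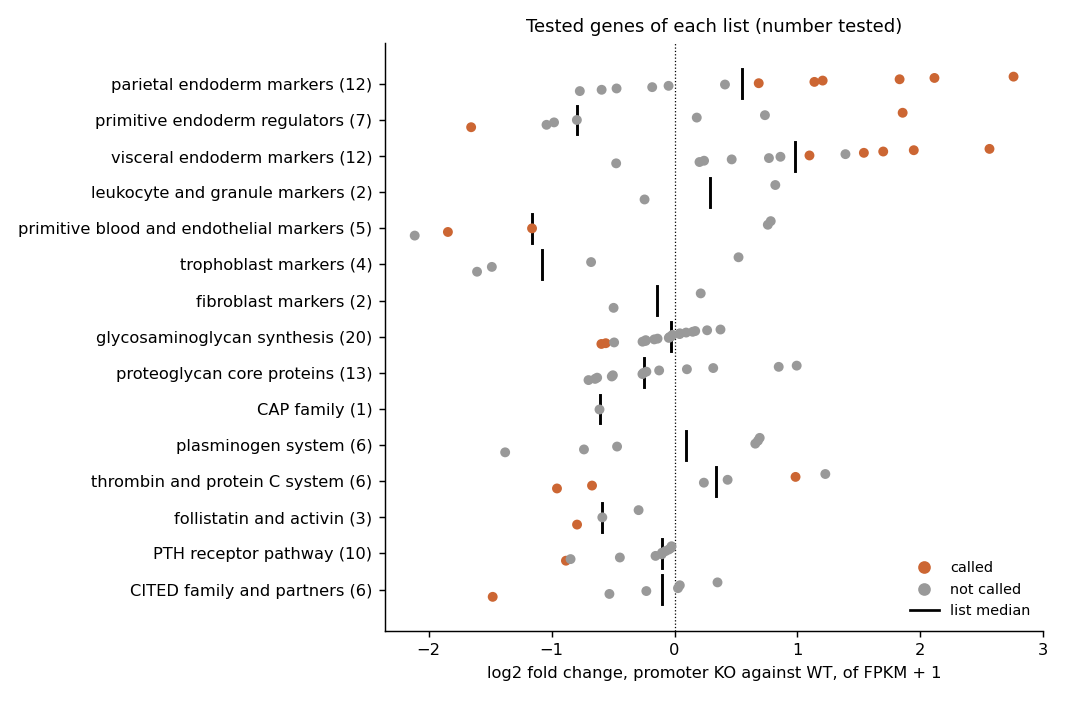
Log2 fold changes of FPKM + 1 (horizontal axis) of the tested genes in each list (rows, number tested in parentheses), with called genes in orange (3 of them, 1 parietal and 2 visceral, had to differ to pass the filter) and a line at each list's median. The points of the parietal endoderm list run from below 0 to 2.76, with 6 called higher, and those of the visceral endoderm list include 5 called higher.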

How the data were processed

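RNA of day 3 EBs was sequenced in 2 samples per genotype. The deposited values are FPKM per gene symbol, 1 file per sample, made by the authors. Their processing notes name HISAT2 2.1.0, Cufflinks, Cuffnorm and mm10, while the methods name TopHat, Cufflinks and Cuffdiff with GENCODE annotation and call the unit RPKM, and the values were taken as FPKM. After transformation to log2(FPKM + 1), genes that reached 1 FPKM in 2 or more samples were tested for genotype with limma 3.58.1 in R 4.3.3 (eBayes with an intensity trend, Benjamini-Hochberg adjustment over 11941 genes, adjusted p under 0.05), without further normalization, after a test on simulated data. Positions, lengths and overlaps between genes came from GENCODE M21, and promoters from RefSeq. Near-identical transcripts (95% identity over 200 bases) were searched with BLAST 2.17.0, which found 0 copies besides the antisense overlap of *Glipr1* and *Krr1*. Tables and figures used Python 3.11.15, numpy 2.4.6, pandas 2.3.3, scipy 1.17.1 and matplotlib 3.10.9.

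The depth was estimated from the value that 1 fragment is worth in 4101 genes with a single annotated transcript. The estimate needs a fragment length, which the sources used here do not give. Of 8 lengths compared, 250 bases was kept because it put the most genes in the peaks of the samples (591, against 440 at 200 and 400 at 300). The lengths of 225 and 275 were added after the others had been seen. From 200 to 300 bases the depths ran from 20000000 to 26000000, and the *Srgn* value of WT 1 corresponded to 38.7 to 42.1 fragments. A whole number of fragments is an estimate.

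The 8 genes and the gene lists were chosen with earlier results of these data known. Named genes are the 8 genes, in each list the 3 called genes with the largest fold change and the most abundant gene, 5 neighbours on each side of *Srgn* and *Glipr1*, the 5 genes nearest to each in pattern, and *Gm11549*. Outside this rule, *Eomes* and *Mixl1* were named for the sample labels, *Myl3* for its overlap, *Sox17* for its use in the paper, and some genes for being listed at 0. *Ptprc*, *Hba-x* and the genes marked as named after their values were seen also lie outside it. Alternatives were a pseudocount of 0.1, other filters, no trend, median centring, quantile normalization, a replicate block, each sample left out, log2 ratios of mean FPKM and a fold change rule.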

Additional observations from a re-analysis of the deposited data

How the results depend on the processing

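Under the alternatives the log2 fold change of *Srgn* ran from 2.84 to 4.62 and *Glipr1* from 2.73 to 5.18, and their values with a pseudocount of 0.1 (4.62 and 4.94) show that the size depends on it at these low WT levels.

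The counts of genes called did not hold. Without a filter beyond a value above 0, limma called 0 genes higher and 0 lower among 18215 (2077 and 1982 at p under 0.05 before adjustment), so 0 genes chosen by role were called lower and 0 parietal endoderm markers higher. A filter at a mean of 5 FPKM gave 95 higher and 108 lower, with fewer genes tested, and left out *Glipr1*, *Plat* and *Thbd*. Without the intensity trend there were 55 higher and 27 lower, and 0 genes chosen by role were called lower. Centring on sample medians gave 157 higher and 126 lower, against 201 and 226 in the reported fit. For the trend and the centring the cause was not tested. With each sample left out in turn, where the lone sample is assumed to vary like the others, the counts ran from 0 to 238 higher and from 0 to 248 lower, genes chosen by role called lower from 0 to 1, and parietal endoderm markers called higher from 0 to 5 and lower from 0 to 1.

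The replicate numbers did not pair the samples (correlation of deviations 0.0348, with 2 pairs). With the replicate block there were 535 genes higher and 667 lower, 2 genes chosen by role called higher (*Cited1*, and *Plat*, which had to differ to pass the filter) and 2 parietal endoderm markers called lower. Of 110 counts in the other lists where a call could be lost, 63 were smaller than reported, 6 larger and 41 within 1.5 times. Of 198 counts in these lists that were reported as 0, 10 rose above 0. Few fragments lie behind *Glipr1* in WT and *Thbd* in all samples.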
